A study of Homo sapiens with 3 samples.

Results

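KBM7, an established human leukaemia line of chronic myeloid origin that keeps mostly 1 copy of each chromosome, was profiled in its wild-type form by chromatin immunoprecipitation and sequencing. H3K27ac (acetylation of histone H3 at lysine 27) and H3K4me3 (trimethylation at lysine 4) have 1 library each, beside 1 input library of DNA that was not immunoprecipitated. The labels give the cells as wild type and name no treatment, and the set holds no other group. The acetylated elements described here are H3K27ac peaks on chromosomes 1 to 22 and X that lie in a super-enhancer away from its target gene and overlap no H3K4me3 peak. A super-enhancer is a long region joined from neighbouring H3K27ac peaks, and the authors gave most of them 1 target gene. A region counts as away when it does not touch the RefSeq gene record of that target.

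By this rule 3690 of 96659 H3K27ac peaks were members, 3.82% of the list (95% Wilson interval 3.70 to 3.94). Of the super-enhancers 173 lay away from their target, 340 touched it and 19 had no target. The 192 regions of the first and last kind are called hosts here, and each held at least 1 element. Of the elements, 3433 were in hosts with a target and 257 in hosts without one. The elements were chosen by their position, by the absence of H3K4me3 and by the authors' peak and super-enhancer calls, so these properties are given as description. The H3K4me3 list holds 36951 peaks. Each mark rests on a single library, so there is no replicate error, nothing was tested, and intervals cover counting error only.

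Enhancers are stretches of DNA where transcription factors bind and raise the transcription of a gene that can lie far away on the same chromosome. Active enhancers and active promoters both carry H3K27ac, whereas strong H3K4me3 is mostly found at promoters, so acetylation without H3K4me3 is a common sign of a distal enhancer. Super-enhancers are dense clusters of such elements, known for their place beside genes that set the identity of a blood cell, and Mediator is the large complex through which factors on enhancers reach RNA polymerase II.

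The sequences at hand are those of RefSeq gene starts (GRCh38.p14, 250 bases before to 50 after the start). The sequence of the elements as a whole was not analysed here. A gene start fell within 23 elements, and 4 of these windows are shown as examples, chosen after their values were seen. They are followed by 1 window of the same gene as one of them, TCEA2, and 1 of TRD-AS1, both at starts covered by H3K4me3 in the same hosts, for contrast. Each is written 5′ to 3′ on the strand of the gene, with every CG dinucleotide in capitals. CG-rich starts are the usual promoters of widely expressed genes.
BALR6 start in an element of the SATB1 host, chr3:17962302-17962601, plus strand: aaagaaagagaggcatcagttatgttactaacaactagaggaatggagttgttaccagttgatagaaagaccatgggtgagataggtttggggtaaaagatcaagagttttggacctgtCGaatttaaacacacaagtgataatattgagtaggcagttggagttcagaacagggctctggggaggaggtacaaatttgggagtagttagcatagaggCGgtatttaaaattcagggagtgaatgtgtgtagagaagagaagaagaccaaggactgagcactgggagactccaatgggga
IFNB1 start in an element of the HACD4 host, chr9:21077893-21078192, minus strand: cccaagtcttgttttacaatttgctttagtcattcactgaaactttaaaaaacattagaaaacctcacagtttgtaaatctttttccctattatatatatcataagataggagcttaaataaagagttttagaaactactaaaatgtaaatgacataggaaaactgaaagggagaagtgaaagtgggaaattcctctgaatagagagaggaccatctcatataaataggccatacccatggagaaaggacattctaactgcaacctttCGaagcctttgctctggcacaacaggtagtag
FAM30A start in an element of a host without target, chr14:105917729-105918028, plus strand: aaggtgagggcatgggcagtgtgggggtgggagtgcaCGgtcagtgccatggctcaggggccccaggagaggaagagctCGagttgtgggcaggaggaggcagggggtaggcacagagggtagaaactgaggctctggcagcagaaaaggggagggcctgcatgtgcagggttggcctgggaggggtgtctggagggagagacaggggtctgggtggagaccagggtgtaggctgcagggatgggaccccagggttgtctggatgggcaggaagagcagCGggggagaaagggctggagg
TCEA2 start in an element of the PRPF6 host, chr20:64056722-64057021, plus strand: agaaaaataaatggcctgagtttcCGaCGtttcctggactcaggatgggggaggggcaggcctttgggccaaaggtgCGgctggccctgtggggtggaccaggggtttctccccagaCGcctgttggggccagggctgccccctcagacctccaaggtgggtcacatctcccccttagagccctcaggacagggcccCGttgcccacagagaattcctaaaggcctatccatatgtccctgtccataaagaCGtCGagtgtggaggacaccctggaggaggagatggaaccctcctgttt
TCEA2 start under H3K4me3 in the PRPF6 host, chr20:64062948-64063247, plus strand: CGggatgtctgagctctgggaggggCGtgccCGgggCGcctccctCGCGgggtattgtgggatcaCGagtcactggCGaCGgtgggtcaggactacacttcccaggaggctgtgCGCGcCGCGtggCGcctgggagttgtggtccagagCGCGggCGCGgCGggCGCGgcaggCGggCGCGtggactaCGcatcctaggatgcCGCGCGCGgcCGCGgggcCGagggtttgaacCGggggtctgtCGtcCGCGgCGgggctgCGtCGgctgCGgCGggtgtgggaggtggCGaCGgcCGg
TRD-AS1 start under H3K4me3 in the DAD1 host, chr14:22432704-22433003, minus strand: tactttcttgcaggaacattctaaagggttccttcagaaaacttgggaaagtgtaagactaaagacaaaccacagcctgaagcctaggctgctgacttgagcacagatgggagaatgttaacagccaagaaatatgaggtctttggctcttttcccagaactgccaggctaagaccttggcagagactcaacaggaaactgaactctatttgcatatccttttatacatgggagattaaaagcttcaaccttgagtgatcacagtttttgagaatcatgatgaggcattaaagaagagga

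The starts inside elements held few CG dinucleotides, and so did H3K4me3-free starts outside super-enhancers. Over all genes the starts under H3K4me3 are the CG-richer ones. The rule leaves out elements that overlap H3K4me3, so a contrast with starts under H3K4me3 partly follows from the rule. The BALR6 window has 2, the IFNB1 window 1, the FAM30A window 3 and the upstream TCEA2 window 7. The second TCEA2 start, farther along the gene and under an H3K4me3 peak of fold 87.6, has 44. Over all 23 starts in elements the median was 4 CG in 300 bases (exact interval of the median 1 to 7, highest 12). The 71 starts that lay in the same hosts under H3K4me3 had a median of 6 (4 to 8, highest 66). All 16872 starts under H3K4me3 had a median of 27, and all 34961 starts in the table had 14. The TRD-AS1 start has 0 CG although it lies under an H3K4me3 peak of fold 50.6 and 7357 bp. A window with at most 8 CG was found for 22 of 23 starts in elements (95.7%, Wilson interval 79.0 to 99.2), and for 46 of 71 starts under H3K4me3 in the hosts (64.8%, 53.2 to 74.9). Of those 71 the 40 starts of long non-coding RNAs (lncRNAs) alone gave 70.0% (54.6 to 81.9). H3K4me3-free starts in super-enhancers covering their target had a median of 6 and at most 8 CG in 30 of 46 windows (65.2%, 50.8 to 77.3). Outside super-enhancers the median was 4 and the share 289 of 373 (77.5%, 73.0 to 81.4).

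**Figure D1:**
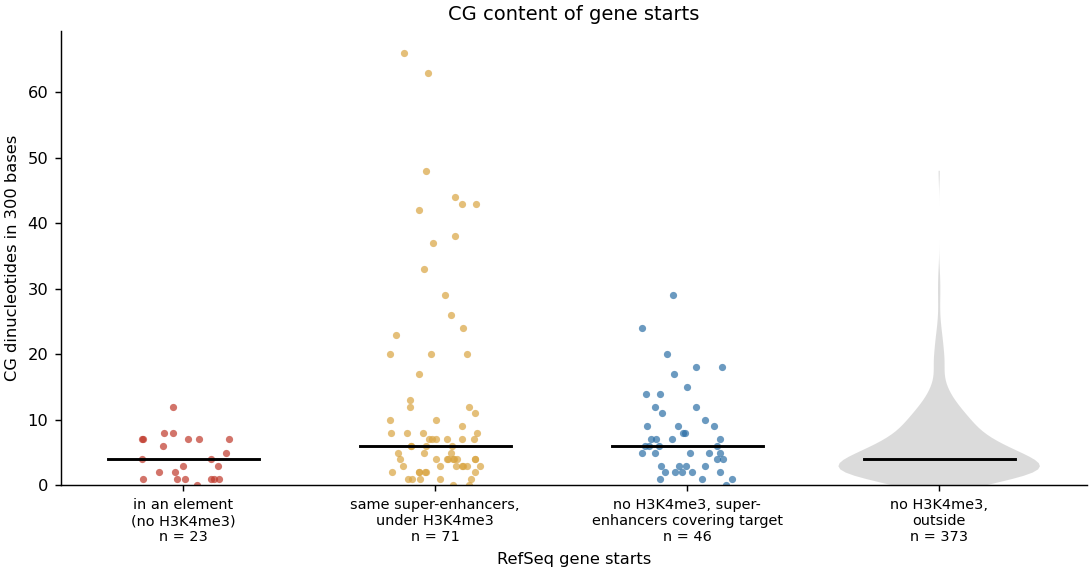
CG dinucleotides in the 300-base window of each RefSeq gene start, for starts in elements of hosts, starts under H3K4me3 in the same hosts, and H3K4me3-free starts in super-enhancers covering their target or outside super-enhancers. Points are starts, the grey shape is the smoothed distribution of 373 starts, and black lines are medians (4, 6, 6 and 4). Starts in elements stay at or below 12, and those under H3K4me3 reach 66.

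Of the 23 starts 20 belonged to lncRNA genes and 3 to protein-coding genes. These 3 were TCEA2, a transcription elongation factor gene, CRYBA4, a lens crystallin gene, and IFNB1, which encodes interferon beta. The elements that hold these starts had a fold of 11.6, 6.33 and 5.04 at their summits, which lay 938, 745 and 48 bp from the start. A gene start was found in 0.623% of the elements (0.416 to 0.934), against 0.665% of H3K4me3-free peaks in super-enhancers covering their target and 0.679% outside super-enhancers. The share over all H3K4me3-free H3K27ac peaks was 0.674%, so the elements stood near the background. Of the 728 H3K27ac peaks in hosts that did overlap H3K4me3, 10.9% (8.79 to 13.3) held one. An H3K27ac peak with H3K4me3 in a host thus usually held no RefSeq gene start.

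Letters of blood-factor motifs were searched on both strands of the 23 windows. The E-box CAGNTG, the kind of site bound by TAL1, was in 15 windows (65.2%), against 49.9% of all 34961 windows. The MYB motif CAACTG was in 6 (26.1% against 11.4%), and since its reverse complement is one form of CAGNTG, each of these windows also counts for the E-box. The C/EBP motif TTGCNNAA was in 5 (21.7% against 10.4%) and the GATA motif AGATAA in 3 (13.0% against 10.3%). AGGAAGT, an ETS motif, was in 2 (8.70% against 8.26%) and the RUNX motif TGTGGTT in 1 (4.35% against 4.28%). In the 71 windows under H3K4me3 in hosts the shares were 54.9% for the E-box, 16.9% for MYB, 15.5% for C/EBP and 9.86% for GATA. For ETS and RUNX they were 8.45% each. With 23 windows these shares rest on few hits, and the differences were not tested. The AP-1 motif TGANTCA was in 0 of 23 windows, which allows a share of up to 13.0%, against 7.68% of all windows and 16 of the 71 under H3K4me3 in hosts (22.5%). A match describes letters in a window and no binding was measured.

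Of 8 microRNA hairpins in hosts 1 touched an element. MIR378G, on the minus strand at chr1:94745860-94745900, lies in an element of fold 3.76 in the host whose target is CNN3, a calponin gene. Its mature sequence is shown with the seed (bases 2 to 8) in capitals.
hsa-miR-378g: aCUGGGCUuggagucagaag

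Most elements were narrow and modest. Fold is the authors' enrichment of H3K27ac at the summit over the expected background, and it was used only within the H3K27ac list. Plain division of fragments by expected background gives a higher value, because the fold has the same small constant added to each. The median element had a fold of 4.28 (4.21 to 4.34), was 414 bp wide (403 to 429) and had 20 fragments at its summit where 3.69 were expected. H3K4me3-free peaks in super-enhancers covering their target had a median fold of 4.29 (4.22 to 4.34), a width of 394 bp (385 to 403) and 20 fragments. H3K4me3-free peaks outside super-enhancers had 3.88 (3.86 to 3.88), 300 bp (298 to 302) and 17 fragments. In fold the elements could not be told from those beside covered targets, and both sets were stronger than peaks outside. Super-enhancers are ranked on H3K27ac signal, so the last difference belongs to how the regions were chosen. The elements of the 19 hosts without a target had a median fold of 4.30 (4.04 to 4.52) and a width of 431 bp (393 to 503).

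High folds were held by a small upper tail. A fold of at least 10, called strong here, was reached by 187 elements, or 5.07% (4.41 to 5.82). The share was 4.05% (3.59 to 4.58) in super-enhancers covering their target and 1.68% (1.57 to 1.79) outside super-enhancers. Over all H3K4me3-free H3K27ac peaks it was 2.12%. Strong elements had a median width of 2477 bp (2099 to 2752) and 63 fragments at the summit (60 to 68, range 37 to 201). A width of at least 2000 bp was found for 5.26% of the elements, against 3.57% in super-enhancers covering their target and 0.750% outside. Fold and width went together across the elements (Pearson r of the logs 0.75, over 3690 peaks of 1 library that share their depth, and wide peaks have more chances of a high summit).

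**Figure D2:**
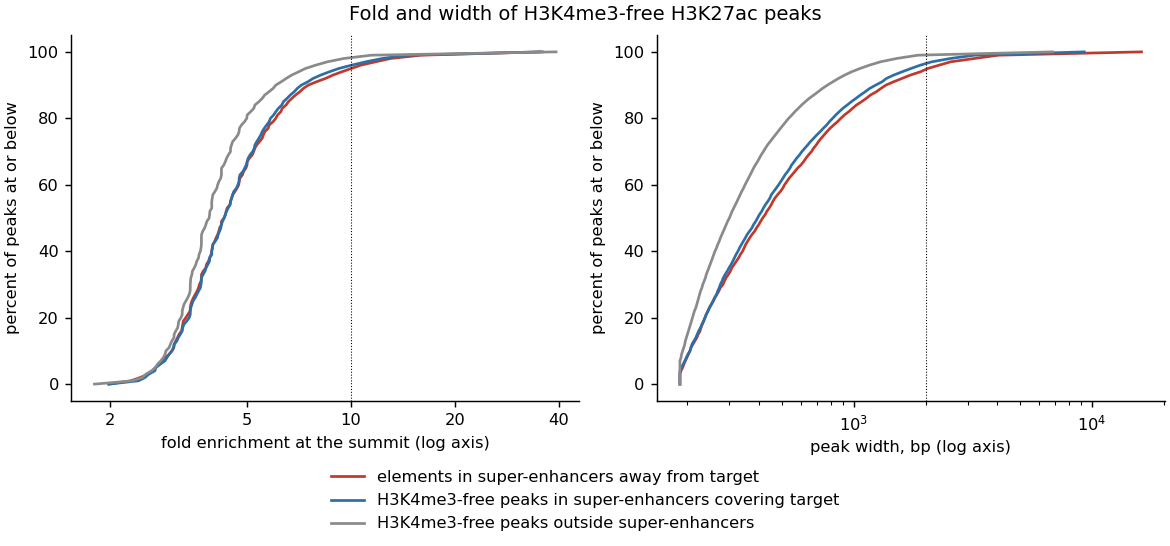
Cumulative percent of H3K27ac peaks without H3K4me3 by fold at the summit (left) and by width (right), both on log axes, for elements in super-enhancers away from their target, peaks in super-enhancers covering their target and peaks outside super-enhancers. Dotted lines mark a fold of 10 and 2000 bp. The curves of both super-enhancer sets nearly coincide in fold (medians 4.28 and 4.29) and lie to the right of the outside peaks (3.88).

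The elements were seldom the strongest peak of their host. That peak was an element in 3 of 192 hosts (1.56%, 0.533 to 4.49) and an H3K4me3-free peak in 4 of 340 super-enhancers covering their target (1.18%, 0.458 to 2.99). The 3 hosts have the targets TMEM65 (fold 19.1 for the element, 17.7 for the best H3K4me3-bearing peak) and PRRC1 (19.9 and 18.9), and 1 has no target (25.9 and 23.8). H3K27ac peaks of hosts that overlapped H3K4me3 had a median fold of 18.9 (18.1 to 19.8) and a width of 3098 bp (2904 to 3336). The H3K4me3 on the strongest host peaks was weaker than in covering regions, with a median H3K4me3 fold of 12.7 (10.9 to 14.1) over 189 hosts, against 26.8 (20.5 to 34.5) over 336 super-enhancers covering their target. In the MYC, SATB1 and SLC39A10 hosts it was 5.19, 5.52 and 4.24. It reached the median of the whole H3K4me3 list, a fold of 10.2, in 118 of 192 hosts (61.5%, 54.4 to 68.1) and in 277 of 340 covering regions (81.5%, 77.0 to 85.2). The strongest host peak held a gene start in 13.0% of hosts (8.98 to 18.5) and in 34.1% of covering regions (29.3 to 39.3). Covering regions touch a gene by definition. When H3K4me3 peaks below the list median were left out, the strongest peak was free of H3K4me3 in 38.5% of hosts, so the low count depends on H3K4me3 peaks below that median.

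Few peaks lay at the edge of the rule, too few to show or exclude a step in fold. The 11 elements within 100 bp of an H3K4me3 peak had a median fold of 4.97, and the 4 host peaks that overlapped H3K4me3 by at most 100 bp had 5.36. Hosts closest to their target lay 40 bp from PWWP2B, 79 bp from C15orf39 and 331 bp from ABHD16B, and regions that just touched theirs did so by 409 bp at HIST1H4H, 599 bp at RAB8A and 604 bp at ITLN1. The median element lay 4.68 kb (4.48 to 4.85) from the nearest H3K4me3 peak, against 3.46 kb (3.34 to 3.55) in super-enhancers covering their target and 4.98 kb (4.87 to 5.08) outside. Strong elements lay nearer to an H3K27ac peak with H3K4me3 than the other elements did. Within 1 kb of one were 75 of 187 strong elements (40.1%, 33.3 to 47.3) and 914 of the 3503 others (26.1%, 24.7 to 27.6). In super-enhancers covering their target the shares were 47.2% and 31.9%. These distances run from peak edge to peak edge and strong elements are wider, and the part of width was not tested. Peak borders are those the authors deposited.

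Hosts had a median length of 40.8 kb (37.98 to 44.6), against 42.4 kb (38.9 to 44.7) for super-enhancers covering their target. Their H3K27ac signal was 7.73 times the input (7.35 to 8.10), against 8.41 times (8.0 to 8.69). A host held a median of 15 elements (14 to 18, range 1 to 113). Per 10 kb the median was 3.94 (3.72 to 4.10), against 3.64 H3K4me3-free peaks (3.45 to 3.79) in covering regions. The elements covered 25.3% of the host length (23.2 to 27.3) and the H3K4me3-bearing peaks 34.1% (30.0 to 36.6). In covering regions the shares were 20.9% (19.5 to 22.1) and 37.9% (36.2 to 40.2). In all, 2.51 of the 9.17 Mb of hosts lay in elements. A strong element was present in 99 hosts (51.6%, 44.5 to 58.5), of which 53 had 1, and the strongest element of a host had a median fold of 10.4 (9.21 to 11.3).

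The 3 highest-ranked hosts show the pattern. In the host of rank 1 (chr8:129533854-129691821), whose target is the growth regulator MYC, the region lies 1791 kb beyond the gene, where a cluster of blood enhancers is known. It held 42 elements with folds of 1.99 to 11.9 (median 4.08) and 4 H3K27ac peaks with H3K4me3, the best of H3K27ac fold 25.5. The 4 strong elements had folds of 11.9, 11.7, 10.7 and 10.0, and all had their summit in the lncRNA gene CCDC26. The strongest, chr8:129652829-129659570, had 108 fragments where 8.16 were expected.

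The host of rank 2 (chr3:17891451-18166677) has the target SATB1, a chromatin organiser of lymphoid progenitors, 179 kb away. It held 113 elements, the most of any host, with folds of 2.29 to 35.3 (median 4.34), and 10 were strong. The strongest and widest element of all (chr3:17898680-17914802, 16123 bp, fold 35.3, 201 fragments where 4.72 were expected) lay 439 kb from SATB1 and 64.7 kb from the nearest H3K4me3 peak. Its neighbour at chr3:17892638-17898284 had a fold of 25.3 and lay 81.3 kb from H3K4me3. Neither summit lay in a gene record. The next, chr3:18084620-18091274 with a fold of 24.3, was in the lncRNA gene BALR6, and the BALR6 start printed above lies in an element of fold 15.7 of the same host. A second SATB1 host, of rank 15 and 79.2 kb from the gene, held 24 elements with a median fold of 5.38 and a highest of 15.5.

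The host of rank 3 has the target SLC39A10, a zinc importer, 29.9 kb away. It held 100 elements with folds of 2.07 to 23.7 (median 4.07), and 9 were strong. The strongest, chr2:195317254-195329492, was 12239 bp wide and lay in the lncRNA gene LOC105376755, 644 bp from an H3K4me3 peak. SLC39A10 itself had neither mark within 1 kb of an end of its gene record. Only the outer ends of a record were read, so marks at a start inside it would be missed.

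**Figure D3:**
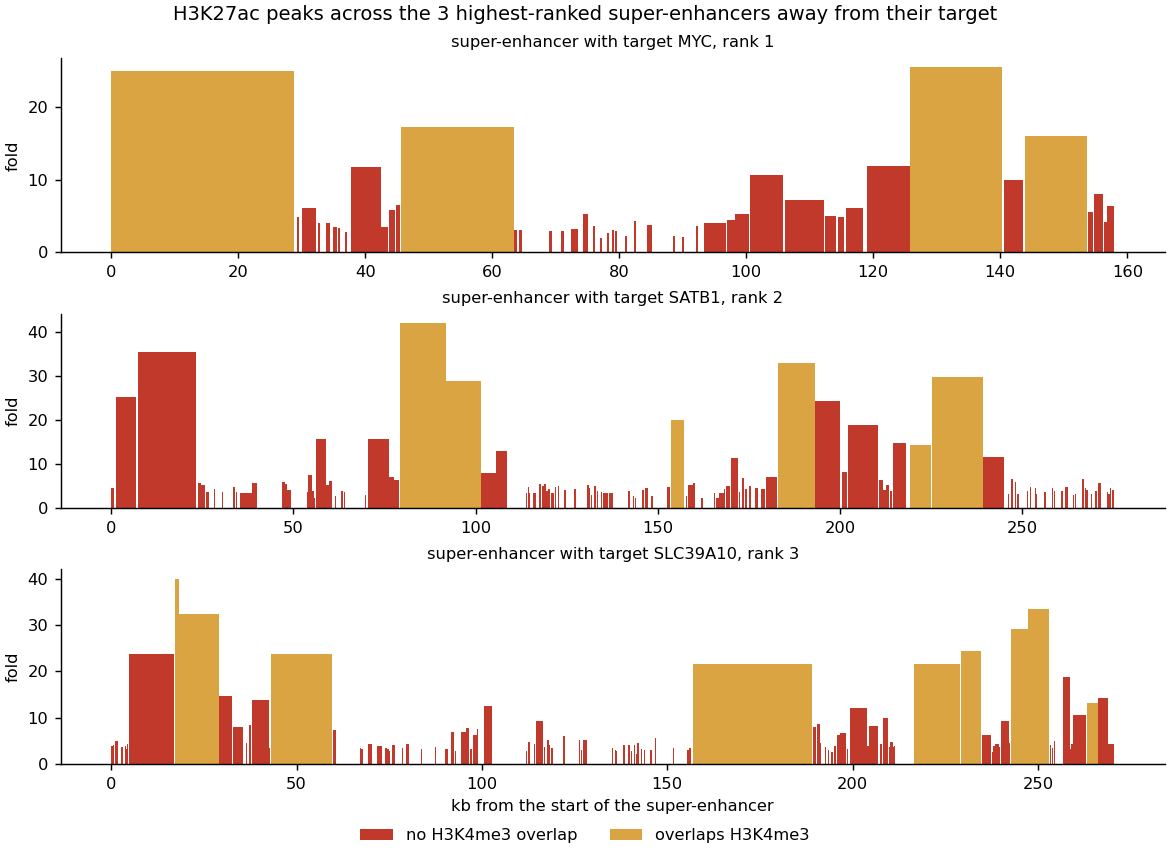
H3K27ac peaks across the hosts of rank 1, 2 and 3, by kb from the start of the super-enhancer, with bar width to scale (the narrowest bars are widened so that they show) and bar height as fold. Red bars are elements without H3K4me3 and yellow bars are peaks that overlap it. The highest red bar is the SATB1 element of fold 35.3, and in each host a yellow bar is higher (25.5, 41.9 and 40.1).

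Each of the other highest-ranked hosts had at least 1 strong element. In the ZFP36L2 host of rank 11, named for a factor of mRNA decay 243 kb away, the strongest of 29 elements (chr2:42944848-42955271) had a fold of 26.7 and 171 fragments, and its median fold was 5.14. The strongest elements of the FANCL, PRSS12, PTMA and TOMM20 hosts (ranks 17, 20, 27 and 34) had folds of 12.6, 11.4, 10.5 and 11.3. These hosts held 24, 2, 38 and 33 elements, of which 1, 1, 1 and 2 were strong. Beyond these, the 10 elements of highest fold included those of PIK3CB, a phosphoinositide kinase subunit (chr3:138888317-138892351, fold 27.4, 56.2 kb away), of PRDX5, a peroxiredoxin (chr11:64490066-64495486, 26.4, 171 kb), of VCPKMT, a methyltransferase (24.96, 58.0 kb), and of CITED2, a partner of the coactivator p300 (23.6, 10.1 kb). Among the 5 widest were an element of the CSMD3 host of rank 88 (8959 bp, fold 16.3) and a second one of DAD1 (8922 bp, fold 13.3). The strongest elements of the farthest hosts lay 1922 kb from PRSS12, a neuronal protease gene, 1912 kb from MYC and 1001 kb from GPC6, a glypican gene. That of GPC6 had a fold of 6.44 and its summit in the neighbouring gene GPC5.

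By the role of the target, haematopoietic transcription factors had the most elements of the 4 role lists. The list of 41 genes had 8 away targets with 9 hosts and 280 elements, with a median fold of 4.46 and 24 strong (8.57%). The share over all elements was 5.07% and their median 4.28. Of those 24, 10 came from the SATB1 host of rank 2 and 4 each from MYC and RUNX3. The host of SPI1, which encodes the myeloid master factor PU.1, lay 1.70 kb from the gene and had the highest ratio of H3K27ac to input of all hosts (20.2). It held 8 elements with folds of 3.85 to 14.0 (median 6.08), of which 3 were strong, and the strongest lay at chr11:47396983-47397767. RUNX3, a Runt family factor, had 27 elements (2.81 to 13.0, median 4.97), and RUNX1, a founder factor of blood stem cells, had 15 (2.35 to 8.82, median 4.46) in a host 389 kb away. ZEB2, a zinc finger repressor, had 28 (2.57 to 12.6), the strongest in the lncRNA gene TEX41. BCL11A, a repressor of fetal globin, had 19 (2.33 to 8.86) and IKZF2, an Ikaros family factor, had 4 (4.49 to 8.03), with none strong in either.

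Among 37 signalling and survival genes 3 were away targets, with 31 elements, a median fold of 4.47 and 3 strong (9.68%). PIM1, a kinase gene induced by STAT5, had 6 elements (3.24 to 16.3) and all 3 strong ones. LYN, a Src family kinase, had 10 (2.42 to 6.91) and CISH, a feedback inhibitor of cytokine signalling, had 15 (3.07 to 8.49), without a strong one.

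Of 20 surface, adhesion and stem cell genes 4 were away targets, with 5 hosts, 138 elements, a median fold of 4.47 and 7 strong (5.07%). MSN, which encodes moesin and links the membrane to actin, had 2 hosts. The one 1.095 kb from the gene had 14 elements up to a fold of 22.1, and elements covered 62.1% of its length, the highest share of any host. The one 59.4 kb away had 60 elements up to 14.9. TFRC, the transferrin receptor gene, had 26 elements up to 13.5, ITGA4, an integrin gene, had 5 up to 10.6, and CD44, the hyaluronan receptor gene, had 33 up to 8.42.

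Chromatin regulators had 3 away targets of 23, with 7 hosts and 178 elements, a median fold of 4.18 and 6 strong (3.37%). JARID2, a cofactor of Polycomb complex PRC2, had 3 hosts at 312 to 859 kb, with strongest elements of fold 16.8, 20.8 and 12.5. RREB1, a zinc finger factor, had 2 hosts with strongest elements of 15.1 and 9.78. Both CHD7 hosts, named for a chromatin remodeller on chromosome 8, had no element above 5.21. With few hosts per list, these shares turn on single regions.

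**Figure D4:**
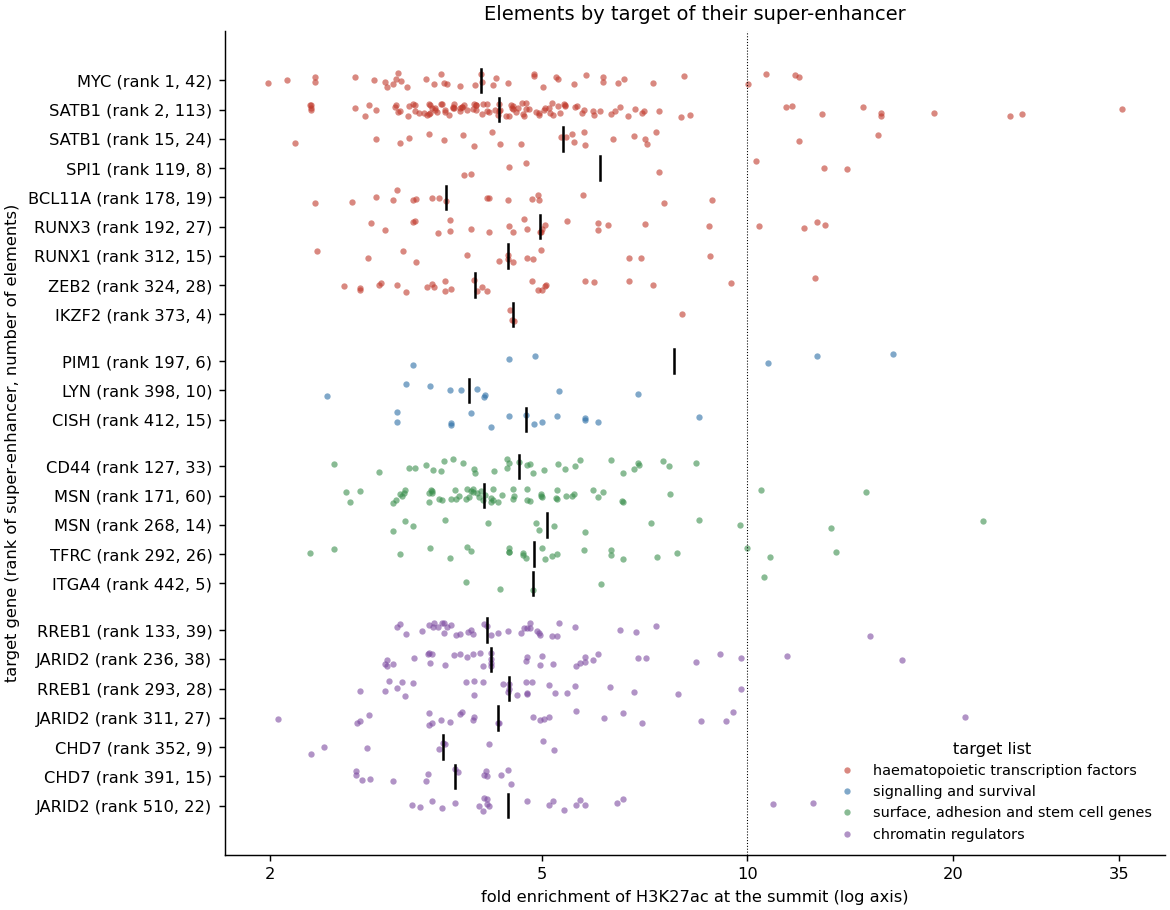
Fold of every element, on a log axis, in the 24 hosts whose target is in 1 of the role lists, with the rank of the host and its number of elements. Points are elements, black bars are host medians, and the dotted line marks a fold of 10. Medians lie between 3.58 (CHD7) and 7.80 (PIM1), and the strongest point is in the SATB1 host of rank 2.

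The fold of the elements differed little between classes of distance from host to target. The median gap was 59.6 kb (39.1 to 82.5, range 0.04 to 1921). Elements had a median fold of 4.28 (4.16 to 4.47) in the 36 hosts under 10 kb from the target, 4.34 (4.21 to 4.46) in the 75 hosts at 10 to 100 kb and 4.21 (4.11 to 4.32) in the 62 hosts at 100 kb or more. The shares of strong elements were 5.10, 5.06 and 5.45%, and the median strongest element had a fold of 11.4, 10.4 and 10.4. The intervals of the 3 medians overlapped, and so did those of the shares.

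**Figure D5:**
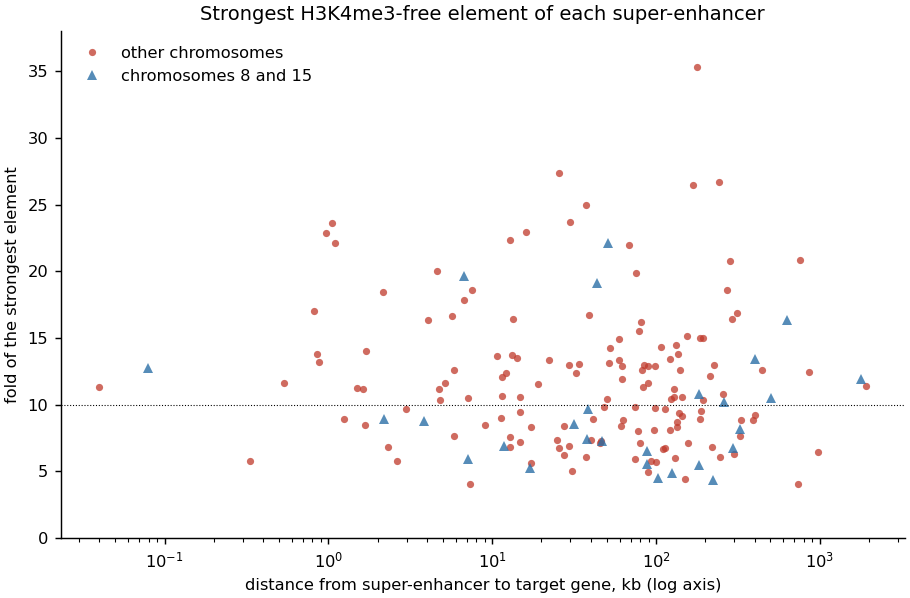
Fold of the strongest element of each of the 173 hosts with a target, against the distance from host to target gene in kb on a log axis. Red circles are hosts on other chromosomes, blue triangles are hosts on chromosomes 8 and 15, and the dotted line marks a fold of 10. Strong elements occur from 0.04 to 1921 kb, with no step along the axis.

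The strongest element lay on the target side of the host's midpoint in 106 of 173 hosts (61.3%, 53.8 to 68.2). Over all elements the share was 50.8% (49.1 to 52.4), and over the 179 strong elements of these hosts it was 54.2% (46.9 to 61.3). For the strongest H3K4me3-bearing peak it was 47.4% (40.1 to 54.8). The share for the strongest element was 58.4% (50.02 to 66.3) in the 137 hosts at 10 kb or more and 54.8% (42.5 to 66.6) in the 62 hosts at 100 kb or more, so in the farther hosts the interval reached an even split.

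Host and named target were often not next to each other. The name of the deposited table cites the same chromosome domain (TAD), closeness and highest TT-seq expression for the choice of target. A nearer gene that fell short of these terms could be passed over. Regions that touch their target are left out here, so the next shares partly follow from how targets and hosts were chosen. A protein-coding gene lay nearer than the target for 100 of 173 hosts (57.8%, 50.4 to 64.9), and 71 hosts (41.0%, 34.0 to 48.5) touched another protein-coding gene. In 26 hosts (15.03%, 10.5 to 21.1) at least 1 such gene lay wholly between host and target, with 7 for ZXDC. The LIF host also touches OSM, and both genes encode cytokines of 1 family. CYBB, which encodes a subunit of the phagocyte oxidase, lies at the DYNLT3 host, and IFNB1 at the HACD4 host. Both marks lay within 1 kb of an end of the gene record for 144 of the 158 away targets (91.1%, 85.7 to 94.6) and for 292 of 320 covering targets (91.3%, 87.6 to 93.9). Over all protein-coding genes the share was 60.4%. The authors picked targets partly by expression, per the name of the deposited table, so this is not independent of their choice. Among the 14 away targets without both, RUNX3, LITAF and SAMSN1 had H3K27ac alone at an end and SLC39A10 had neither mark. Starts inside a gene record were not read.

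Summits lay in protein-coding genes for 24.6% of the elements (23.2 to 26.0), in lncRNA genes alone for 23.3% (21.9 to 24.7) and in neither for 52.1% (50.5 to 53.7). These shares follow the ground the hosts cover, since 25.9% of host bases were in protein-coding genes, 24.2% in lncRNA genes alone and 49.9% in neither. In super-enhancers covering their target the summit shares were 68.6, 5.89 and 25.5%, and the shares of bases 68.5, 6.14 and 25.4%. The rule keeps hosts off their own target gene, which lowers the share in protein-coding genes by construction.

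Some targets had several hosts. TOMM20, a mitochondrial import receptor gene, had 4 with 131 elements between 4.61 and 215 kb away, and CSMD3 had 3 with 65 elements at 297 to 627 kb. Targets with more than 1 host numbered 11.

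Hosts also lay over antigen receptor loci. The DAD1 host (rank 12, chr14:22414199-22496148), named for a gene of protein glycosylation, spans 29 T cell receptor delta and alpha segments. Of its 18 elements 7 touched a segment, and the strongest (chr14:22471691-22475426) had a fold of 21.9 and lay in TRD-AS1. The TARP host (rank 102) spans 11 T cell receptor gamma segments and had 18 elements with a highest fold of 12.4. The highest-ranked host without a target (rank 122, chr14:105859556-105918109) spans 35 immunoglobulin heavy chain joining and diversity segments. It had 19 elements, 8 of which touched a segment, with a highest fold of 7.38 at chr14:105878209-105878881.

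Of the 19 hosts without a target 10 touched a protein-coding gene. That of rank 152 lies over FNTB and MAX, which encodes the partner of MYC, with a strongest element of fold 6.87 at chr14:65038849-65040166. The host of rank 168 held the strongest element of this kind, of fold 25.9 and 160 fragments, in the lncRNA gene LINC01221 (chr1:199037503-199041597). It lies 249 kb from PTPRC, which encodes the leukocyte antigen CD45. The host of rank 230 touches PCED1B and has a strongest element of 7.01. That of rank 260 lies over MIR222HG, host gene of a microRNA pair, with 9.98.

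The label of the line was read at gene ends for marker genes. All 8 myeloid and progenitor genes had both marks within 1 kb of an end, 0 of 4 erythroid genes and 0 of 3 genes of other tissues did, and 2 of 3 T cell and 1 of 2 B cell genes did. KBM7 is known to keep a second copy of chromosome 8 and of part of chromosome 15. On chromosome 8 the 297 elements of 18 hosts had a median expected background of 7.25, a fold of 3.70 and 30 fragments. The 215 elements of 10 hosts on chromosome 15 had 6.24, 3.57 and 25. Elsewhere the values were 3.63, 4.36 and 20. More fragments thus went with a lower fold on these chromosomes, so folds of the MYC, LYN and CHD7 hosts are not on the same footing as the rest, and the part of copy number was not tested.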

How the data were processed

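A peak list was deposited for H3K27ac and another for H3K4me3, with a table of the super-enhancers. Bowtie2 2.3.4, bedtools 2.20.1 and build hg38 are named in the submitters' processing notes, and which program called the peaks is not given in these sources. For each peak the authors give a fold enrichment (ratio) at the summit, −log10 p and −log10 q values and a score, which equals 10 times the −log10 q rounded down. Fragments at the summit were recovered from the deposited fold and −log10 p as a Poisson tail in 100% of rows (tolerance 0.01). The deposited table gives a total H3K27ac signal and input signal per region, whose scaling is not stated, and a score of difference, per the file headers.

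Targets were matched to RefSeq GRCh38.p14 by symbol (500 regions), accession (11) or synonym (2). An overlap needed at least 1 shared bp. Shares have 95% Wilson intervals and medians exact binomial ones (Python 3.11.15, SciPy 1.17.1). The recovery and overlap steps were checked on simulated data. Sequence motifs at element summits had been planned and were not analysed here. The named elements are the 10 of highest fold, the strongest of the 10 highest-ranked hosts, of the hosts in the role lists, of the 5 highest-ranked hosts without a target and of the 5 farthest hosts, and the 5 widest. The members, lists and rules were chosen with earlier results of these data known. Other hosts named for their repeated targets, their neighbours, antigen receptor segments or gene starts were chosen after their values were seen.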

Additional observations from a re-analysis of the deposited data

How the results depend on the processing

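Of 95 recomputed values under 9 planned settings and 1 added, 75 stayed within the interval of the reported value or, for counts, within 1.5 times of it. The 75 include values that could not move. Asking for the summit or the larger part of a peak inside the region returned every value unchanged. Settings on target distance leave covering and outside peaks as they are. The share of hosts with a nearer gene does not use the elements, so settings on peaks left it unchanged. No paired analysis was possible because each mark has 1 library. When only H3K4me3 peaks at or above the list median fold removed peaks, the median fold of elements was 4.49 and the width 461 bp, and the median fold was 4.52 in super-enhancers covering their target and 3.96 outside. The strongest peak was then an element in 38.5% of hosts, and in 0 hosts when H3K4me3 within 1 kb also removed peaks. With a −log10 q of at least 5, elements had a median fold of 4.97 and a width of 568.5 bp, against folds of 4.97 and 4.57 in the other sets. Hosts at 10 kb or more gave a median element distance of 120 kb. At 100 kb or more, with the hosts without a target kept, there were 1522 elements in 81 hosts, 59.3% of them inside another gene record, at a median of 247 kb, and 67.7% of hosts with a target had a nearer protein-coding gene. Without chromosomes 8 and 15 the median folds were 4.36, 4.35 and 3.89 for elements, covering and outside peaks. With hosts without a target left out, 46.2% of elements lay inside another gene record. The added setting, lncRNA starts alone, and the use of 4 planned settings on the side of the strongest element were chosen after seeing the data. Depth limits weak elements, whose median of 20 fragments leaves wide counting error, and none of these settings stands in for a second library.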
